A study of Mus musculus with 79 samples.

Results

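The 9 genes described here are Lepr, which encodes the leptin receptor, the secreted niche factors Cxcl12, Kitl, Il7, Csf1 and Angpt1, and the transcription factors Foxc1, Ebf3 and Ebf1. They were taken by gene symbol from the deposited tables, which hold 39063 features with a numeric gene ID. All 9 passed the filter on low values and are therefore among the 14873 genes tested. Bulk RNA was sequenced from whole tissue of 51 mice in 79 libraries, with caudal vertebrae (CV, rich in constitutive bone marrow fat, cBMAT) from every mouse, lumbar vertebrae (LV, bone without that fat) from 18 females and inguinal white adipose tissue (iWAT) from 10 WT females. WT mice were BMAd-Pnpla2+/+ and cKO mice, labelled KO in the deposit, were BMAd-Pnpla2-/-, in which the lipase ATGL is removed from bone marrow adipocytes (BMAds) and kept by the other cells of the vertebra. Mice were 4 to 5 months old on a mixed SJLxC57BL6 background, and all were pair-fed and carried a pump that delivered PBS or leptin (100 ng/h) into the cerebral ventricle (ICV) for 9 days. Without insulin, the CV of females comprised 5 WT mice with PBS, 5 WT with leptin, 4 cKO with PBS and 4 cKO with leptin. Males without insulin comprised 5 WT with PBS, 8 WT with leptin, 5 cKO with PBS and 4 cKO with leptin. A further 5 PBS and 6 leptin WT males also carried a subcutaneous insulin pellet. LV and iWAT came from the same females as the CV, with 5 WT mice per treatment in either tissue and, in LV, 4 cKO mice per treatment.

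As background, the haematopoietic niche of the marrow rests largely on perivascular reticular stromal cells that express the leptin receptor and produce CXCL12 and KIT ligand. CXCL12 retains stem and lymphoid progenitor cells through CXCR4, KIT ligand maintains stem cells and mast cells through KIT, IL-7 drives early B and T lymphocyte development, CSF1 drives macrophages and osteoclasts through CSF1R, and ANGPT1 signals to endothelial and stem cells through TEK. FOXC1 and EBF3 keep these stromal cells in their niche state. EBF1 acts in B lymphocytes, in stromal cells and in adipocytes. In a bulk sample, fewer cells of a type and less RNA per cell cannot be told apart, which applies to every level below.

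Library totals were 16100377 to 19364106 counts in CV, 28717516 to 29757254 in LV and 17638318 to 19100698 in iWAT. The rarest of the 9 genes, Il7, had 28 to 115 counts per library and the most abundant, Cxcl12, had 3193 to 63242. In the gene removed from BMAds, Pnpla2, the CV of cKO females with PBS held 179 ± 58.4 TPM (a share of all transcripts of a library that is corrected for gene length, mean ± SD, n = 4) against 251 ± 30.02 in WT (n = 5), and over both sexes and treatments Pnpla2 was lower in cKO CV by 0.50 on the log2 scale (edgeR quasi-likelihood test, adjusted p = 0.0141). The tissues kept to their labels. In WT females with PBS, 10 adipocyte markers summed to 9301 to 13178 TPM in CV, 319.5 to 585.6 in LV and 68430 to 87809 in iWAT. Skeletal muscle markers reached 23588 to 51667 TPM in the same CV libraries and 1133 to 3888 in LV, so the dissected CV held muscle as well as bone and marrow.

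The upstream sequences of the genes for the most abundant secreted factors in CV, Cxcl12 and Csf1, are printed. Among the promoter windows of the genes described here, only these lay wholly outside the RefSeq gene and overlapped no annotated exon. Both are the 250 bases before the RefSeq start on GRCm38.p6, free of annotated exons, read 5′ to 3′ on the strand of the gene. The Cxcl12 window lies at chr6:117168285-117168534 on the plus strand and the Csf1 window at chr3:107760470-107760719 on the minus strand. Capitals mark the GC box GGGCGG on either strand and, at 147 bases upstream in Csf1, the EBF-type core CCCNNGGG.

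Cxcl12: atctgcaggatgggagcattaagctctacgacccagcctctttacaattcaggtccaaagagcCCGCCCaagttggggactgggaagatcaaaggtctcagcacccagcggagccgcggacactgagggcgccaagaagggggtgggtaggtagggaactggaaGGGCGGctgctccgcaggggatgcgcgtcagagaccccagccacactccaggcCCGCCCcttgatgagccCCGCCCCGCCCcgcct
Csf1: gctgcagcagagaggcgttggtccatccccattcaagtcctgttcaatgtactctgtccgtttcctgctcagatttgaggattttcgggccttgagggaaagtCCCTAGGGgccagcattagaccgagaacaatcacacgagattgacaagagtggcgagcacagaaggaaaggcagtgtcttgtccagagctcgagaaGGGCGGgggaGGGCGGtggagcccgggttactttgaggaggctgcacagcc

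The table of RefSeq promoters held 9 entries for 7 of the 9 genes, and Il7 and Angpt1 had none. A GC box was present in 6 of the 9 windows and in 32.7% of all 32851 promoters. The EBF-type core was present in 2 (Csf1 and Ebf3) and in 11.8% of all promoters, and overlapped no GC box in either window, while the 2 GC boxes nearest the start of Cxcl12 share 1 base. The forkhead-type GTAAACA, held by 3.17% of all promoters, and the STAT-type TTCNNNGAA, held by 7.02%, were in none of the 9 windows, which says only that these letters do not occur there. The matches are a description of the letters and not of binding.

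In the CV of WT females with PBS, Cxcl12 (gene ID 20315, chr6:117168535-117181368) was by far the most abundant of the 9 genes on the per-length TPM scale. Its 5 libraries held 834, 925, 952, 1206 and 1232 TPM. Csf1 (12977, chr3:107741048-107760469) followed at 61.5 ± 6.32 TPM and Lepr (16847, chr4:101717137-101815352) at 52.1 ± 11.5, and the ranges of these 2 genes overlapped. Ebf1 (13591, chr11:44618100-45008096) stood below them at 33.5 ± 1.35 TPM, with a range of 31.6 to 34.8 that did not reach the lowest Lepr value of 45.1. Kitl (17311, chr10:100015615-100100416) at 26.1 ± 3.03, Foxc1 (17300, chr13:31806646-31810635) at 26.1 ± 2.25 and Angpt1 (11600, chr15:42424667-42676977) at 23.4 ± 3.67 could not be ordered, since their ranges overlapped. Ebf3 (13593, chr7:137193671-137322805) at 12.3 ± 0.65 TPM and Il7 (16196, chr3:7572028-7613760) at 2.83 ± 0.56 completed the order (all n = 5). Long non-coding genes overlap the spans of Angpt1, Csf1, Ebf3 and Il7, and since the strandedness of the libraries is not given in the sources used here, their reads may not be fully separated.

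The first comparison asked how these levels differed between fat-rich and fat-free vertebrae. Every one of the 9 genes had a higher TPM in each CV library than in any LV library of WT females with PBS, with ratios of mean TPM from 1.98 for Angpt1 to 9.25 for Ebf1. On this scale 71.6% of all genes also lay wholly higher in CV, and 83.0% did not overlap in either direction. Lepr was at 52.1 ± 11.5 TPM in CV and 15.1 ± 1.46 in LV, Cxcl12 at 1030 ± 178.1 and 477 ± 35.3, and Kitl at 26.1 ± 3.03 and 7.82 ± 1.18 (n = 5 each). LV, however, is rich in blood-forming cells: 6 erythroid markers summed to 206043 to 270591 TPM in LV against 2329 to 7052 in CV, and 8 neutrophil markers to 148179 to 179494 against 2169 to 11484. TPM divides a fixed total among all transcripts, and the median difference of all genes on the TPM scale was 0.87 (log2), against 0.06 after TMM scaling of the counts.

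With TMM scaling, 6 of the 9 genes were called higher in CV, and none was called lower. A call required an adjusted p below 0.05 together with a log2 difference of 0.5 or more in size. Of all genes 65.4% were called in this comparison and 35.3% were called higher. The median log2 difference was 0.69 for the 9 genes and 0.06 for all genes. The transcription factors Ebf1 (2.09 ± 0.11, SE), Foxc1 (1.59 ± 0.17) and Ebf3 (1.26 ± 0.12) and the ligand Csf1 (1.27 ± 0.12) differed most, followed by Kitl (0.69 ± 0.15, adjusted p = 0.000135) and Lepr (0.66 ± 0.16, adjusted p = 0.000472, edgeR). Cxcl12 (0.05 ± 0.13, adjusted p = 0.73), Angpt1 (0.01 ± 0.15, adjusted p = 0.97) and Il7 (0.37 ± 0.19, adjusted p = 0.073) did not pass the edgeR test. Under limma on log2(TPM + 1) these 3 genes were higher by 1.09, 0.94 and 0.88, respectively, so whether these genes passed as higher in CV depended on the scaling.

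Against iWAT, which shares adipocytes with CV but not marrow, Lepr, Foxc1 and Cxcl12 showed the widest gaps. Lepr was listed at 45.9, 45.1, 47.9, 49.3 and 72.4 TPM in CV and at 2.59, 2.70, 2.99, 3.60 and 4.02 in iWAT of WT females with PBS. The log2 difference was 3.80 ± 0.18 for Lepr, 3.07 ± 0.19 for Foxc1 and 2.78 ± 0.14 for Cxcl12. Angpt1 (1.31 ± 0.16), Csf1 (0.80 ± 0.12) and Il7 (0.63 ± 0.19, adjusted p = 0.00456, edgeR) were also higher in CV, which made 6 of 9 called, all higher. In this comparison 50.5% of all genes were called and 26.8% were called higher, and the median difference was 0.03 over all genes tested. Il7 was no longer called with the muscle marker level as a covariate (adjusted p = 0.65, edgeR). Muscle markers summed to 23588 to 51667 TPM in these CV libraries and 40.1 to 3681 in iWAT, so this covariate largely follows the tissue. It cannot measure the part of muscle in the Il7 difference, which was not tested.

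Ebf1 (0.22 ± 0.11), Kitl (0.22 ± 0.15) and Ebf3 (−0.06 ± 0.12) did not pass the test between CV and iWAT. Kitl was called with the muscle covariate (0.67, adjusted p = 0.0043, edgeR), which largely follows the tissue here. Ebf1 passed by adjusted p under limma on log2(TPM + 1) (0.39, adjusted p = 0.0051) and on log2(TPM + 0.1) (0.40, adjusted p = 0.0089). Ebf3 was at 12.3 ± 0.65 TPM in CV and 12.0 ± 1.13 in iWAT and was the sole gene of the 9 whose ranges overlapped between those tissues, where 56.7% of all genes did not overlap and 34.7% lay wholly higher in CV. The CV and LV ranges of Ebf3, by contrast, lay far apart, with 11.7 to 13.3 TPM in CV and 2.21 to 3.05 in LV. Both tissue comparisons share the same 5 CV libraries.

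**Figure D1:**
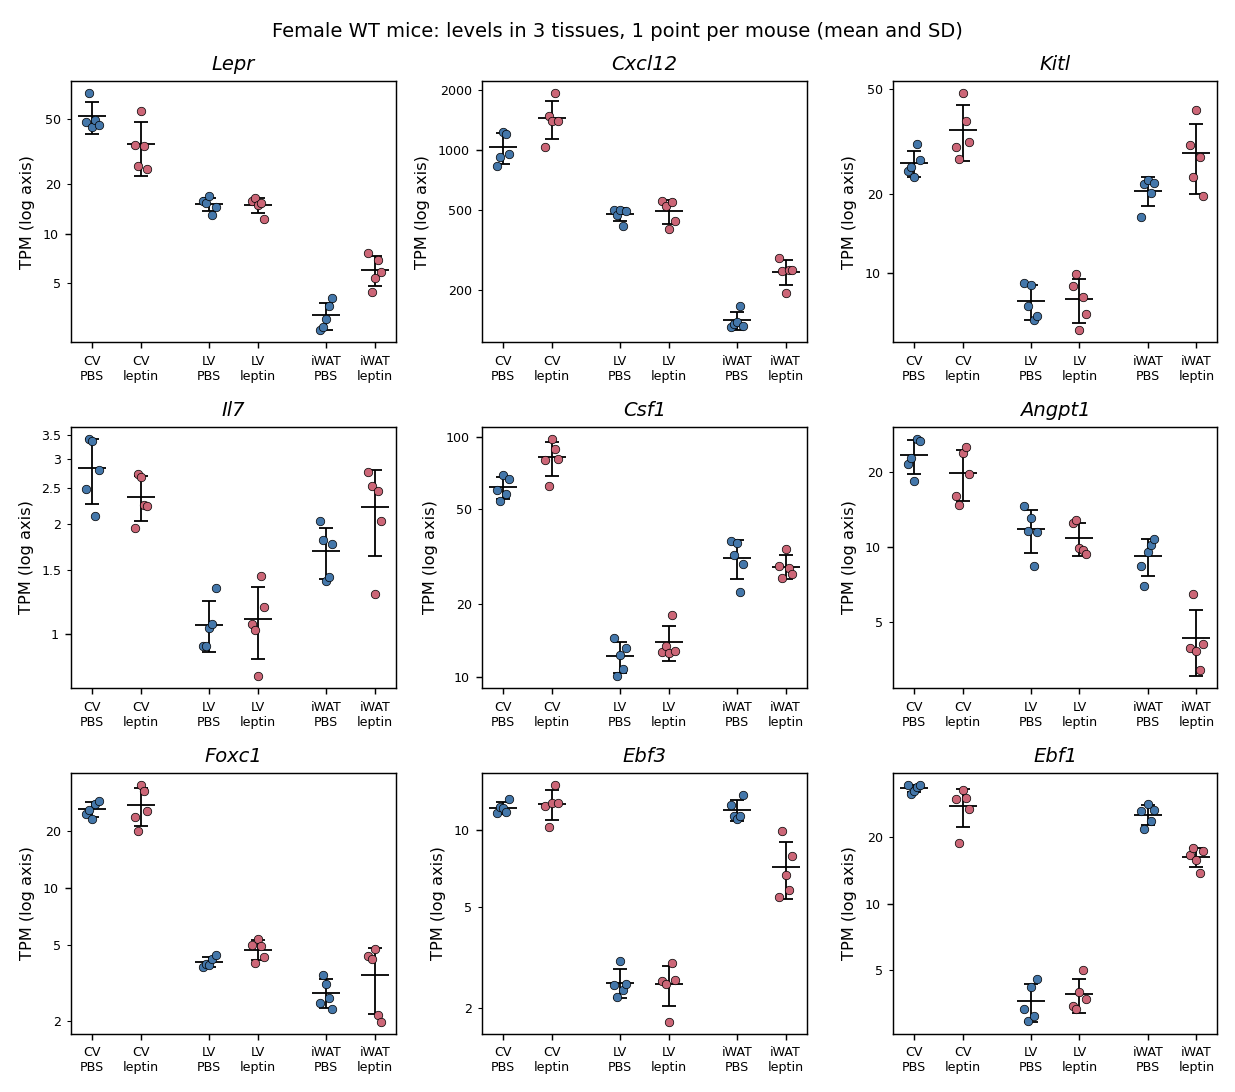
Levels of the 9 genes in TPM (log axis) in CV, LV and iWAT of WT females with ICV PBS or ICV leptin, where points are mice (5 per group) and bars give mean and SD. All 9 genes sit higher in CV than in LV, Ebf3 is level between CV and iWAT, and in iWAT Lepr and Cxcl12 are higher and Angpt1, Ebf3 and Ebf1 lower with leptin.

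The next question was what ICV leptin did to these genes in CV. The niche chemokine Cxcl12 and the stem cell factor gene Kitl were higher with leptin on average in all 4 combinations of sex and genotype. As the mean of the 4 leptin effects, Kitl was higher by 0.42 ± 0.06 on the log2 scale (adjusted p = 6.24e-06, edgeR) and Cxcl12 by 0.45 ± 0.09 (adjusted p = 0.000262). Both estimates lay below the fold threshold of 0.5, so 0 of 9 genes were called in this comparison against 5.39% of all genes. By the adjusted p alone 2 of the 9 genes passed, both higher, where 26.5% of all genes passed in either direction and 13.9% passed as higher. These 2 effects kept an adjusted p below 0.05 in each alternative fit and after leaving out each of the 40 mice in turn, when Kitl ranged from 0.38 to 0.44 and Cxcl12 from 0.39 to 0.49.

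Males showed the clearest Cxcl12 difference. In WT males with PBS the CV held 716, 740, 825, 1070 and 1232 TPM of Cxcl12, and the 8 WT males with leptin spanned 1239 to 1804 with a median of 1478. No leptin mouse overlapped the PBS range, although the highest PBS mouse lay just below the lowest leptin mouse. Of all genes 2.19% did not overlap between these groups and 1.35% lay wholly higher with leptin. The log2 fold change was 0.65 ± 0.14 (adjusted p = 0.0229, edgeR), which made Cxcl12 the sole gene of the 9 called in WT males, where 1.75% of all genes were called and 0.834% were called higher. Kitl in the same males was listed at 16.6, 17.0, 18.0, 22.4 and 23.9 TPM with PBS and from 20.3 to 38.2 (median 28.4) with leptin, a difference of 0.48 ± 0.10 (adjusted p = 0.0242) that overlapped at its edges and was below the fold threshold. With the muscle marker level as a covariate the estimates were larger, 0.75 for Cxcl12 and 0.59 for Kitl, and neither passed (adjusted p of 0.0910 and 0.0797, edgeR). Without PBS replicate 1, 2 or 4, Cxcl12 was not called either, its fold change ranging from 0.56 to 0.76 over all single omissions. Muscle markers summed to 49880 to 62002 TPM in these PBS males and 27298 to 51248 in the leptin males, and 2 of 10 were called lower. The muscle covariate thus partly follows treatment in these males. It cannot measure the part of muscle in these differences, which was not tested.

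Female WT mice had the same direction for both genes without reaching a call. Cxcl12 was at 834, 925, 952, 1206 and 1232 TPM with PBS and at 1037, 1397, 1397, 1472 and 1928 with leptin (0.47 ± 0.17, adjusted p = 0.11), and the groups overlapped. Kitl was at 23.2, 24.4, 25.2, 26.8 and 31.0 TPM with PBS and at 27.1, 30.2, 31.6, 38.0 and 48.4 with leptin (0.39 ± 0.11, adjusted p = 0.051), and it passed by adjusted p in 5 alternatives, DESeq2 among them, with folds of 0.34 to 0.40. In cKO females Kitl stood at 17.1, 21.1, 27.1 and 27.3 TPM with PBS and at 27.8, 27.8, 30.5 and 35.0 with leptin, ranges that did not overlap (0.49 ± 0.17, adjusted p = 0.35), where 5.02% of all genes did not overlap and 1.39% lay wholly higher. Cxcl12 in cKO mice differed by 0.31 ± 0.25 in females (adjusted p = 0.64) and by 0.39 ± 0.14 in males (adjusted p = 0.37), and Kitl in cKO males by 0.32 ± 0.08 (adjusted p = 0.13, and 0.0129 with DESeq2). No member was called in cKO females or cKO males, where 0.0269% and 0.188% of all genes were called and where 1723 and 1436 genes had an unadjusted p below 0.05 in edgeR.

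**Figure D2:**
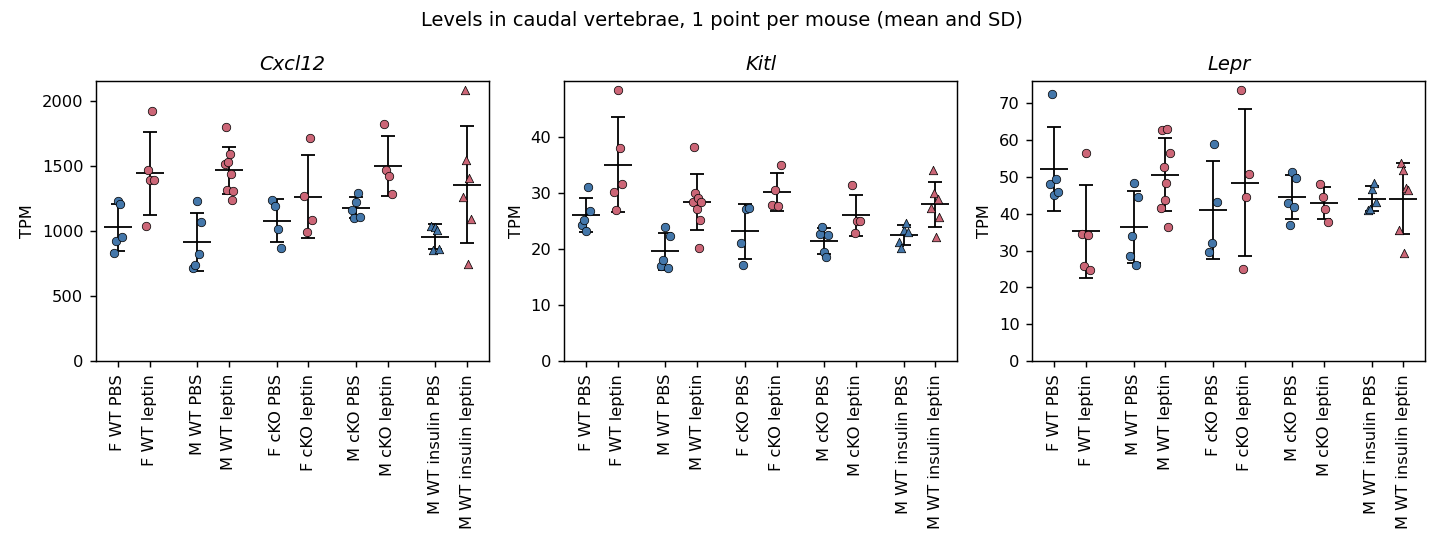
Cxcl12, Kitl and Lepr in caudal vertebrae of every mouse in TPM, where circles are mice without and triangles mice with an insulin pellet, blue marks ICV PBS, red marks ICV leptin and bars give mean and SD. In WT males without insulin all leptin mice have Cxcl12 at 1239 TPM or more, while Lepr has no common direction over the 4 pairs of groups.

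Beside these differences, several cell markers also moved with leptin in CV. As the mean of the 4 effects, 6 of 10 adipocyte markers were called lower, 4 of 6 erythroid markers higher, 4 of 10 macrophage and osteoclast markers higher, 2 of 7 cartilage markers lower and 1 of 8 endothelial markers, Stab2, higher. Of all genes 5.39% were called in this comparison and 3.19% were called higher. Erythroid markers in WT males summed to 2106 to 5883 TPM with PBS and 7227 to 19125 with leptin. The part of these cells in the Cxcl12 and Kitl differences was not tested. With the muscle marker level as a covariate, the mean effect of leptin was 0.54 for Cxcl12 and 0.38 for Kitl.

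The leptin receptor itself gave no common response in CV. WT females with PBS had 45.1, 45.9, 47.9, 49.3 and 72.4 TPM of Lepr and those with leptin had 24.9, 25.9, 34.3, 34.6 and 56.4, lower in 4 of 5 leptin mice than in any PBS mouse (−0.62 ± 0.20, adjusted p = 0.071, edgeR). WT males with PBS had 26.2, 28.5, 34.1, 44.6 and 48.3 TPM and those with leptin 36.4 to 63.0 with a median of 50.5 (0.44 ± 0.16, adjusted p = 0.15). The difference between the male and the female effect was 1.06 ± 0.30 (adjusted p = 0.43 over all genes, edgeR), and 0 of 14873 genes (0%) passed this interaction in edgeR, where 1020 had an unadjusted p below 0.05 and DESeq2 called 4. In cKO mice the Lepr differences were 0.37 ± 0.32 in females and −0.03 ± 0.15 in males, and the mean over the 4 effects was 0.04 ± 0.11 (adjusted p = 0.84). The female estimate ranged from −0.80 to −0.46 when each mouse was left out, with adjusted p from 0.0185 to 0.166, and DESeq2 called it (adjusted p = 0.0202).

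Among the remaining ligands, Csf1 in WT females was at 54.1, 57.6, 60.1, 66.6 and 69.3 TPM with PBS and 62.2, 79.7, 81.0, 88.8 and 97.9 with leptin. This difference of 0.37 ± 0.09 passed by adjusted p alone (0.0309, edgeR) and lay below the fold threshold. It did not pass under limma at either pseudocount (adjusted p of 0.0656 and 0.0672) or with the muscle covariate (0.0735), nor without any of 6 of the 10 mice, and it was 0.06 ± 0.10 in WT males, where the groups overlapped. In those females, 5 of 10 macrophage and osteoclast markers and 3 of 8 osteoblast markers were called higher with leptin, where 5.04% of all genes were called. The part of these markers was not tested. Il7 (−0.26 ± 0.10, adjusted p = 0.058) and Angpt1 (−0.12 ± 0.07, adjusted p = 0.20) did not pass as the mean of 4 effects in edgeR. Il7 passed by adjusted p under DESeq2 (0.0488) and under limma at both pseudocounts (0.0391 and 0.0488). Angpt1 passed with the muscle covariate, both as the mean of 4 effects (−0.22, adjusted p = 0.0148, edgeR) and in WT females (−0.47, adjusted p = 0.0277). All of these lay below the fold threshold.

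The transcription factors differed little with leptin in CV. Ebf1 in WT females ranged from 31.6 to 34.8 TPM with PBS and from 18.8 to 32.8 with leptin, a difference of −0.31 ± 0.08 with an adjusted p of 0.0415 in edgeR, below the fold threshold and not past an adjusted p of 0.05 in 8 of the 10 fits that left out a mouse, under limma (0.217 and 0.220) or in 1 fit of the 8 CV groups (0.0956). As the mean of the 4 effects Ebf1 was at −0.15 ± 0.06 (adjusted p = 0.067), Foxc1 at 0.01 ± 0.07 and Ebf3 at −0.04 ± 0.06. Ebf1 passed by adjusted p with the muscle covariate (−0.23, adjusted p = 0.0092, edgeR) and with the mouse number series as a covariate (−0.15, adjusted p = 0.026). In WT females 0 of 9 genes were called, where 5.04% of all genes were called and 3841 had an unadjusted p below 0.05. By the adjusted p alone, 2 of 9 (Csf1 and Ebf1) passed in WT females against 8.78% of all genes, and 2 of 9 (Cxcl12 and Kitl) in WT males against 2.92%.

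Loss of ATGL from BMAds was compared next, to ask what these cells' lipolysis adds to the response. Averaged over sex and treatment, no member was called between cKO and WT CV, where 0.249% of all genes were called and 2008 had an unadjusted p below 0.05 (edgeR). The largest estimates were Foxc1 at 0.14 ± 0.07 (adjusted p = 0.39), Il7 at −0.13 ± 0.10 and Cxcl12 at 0.12 ± 0.09. The effect of leptin did not differ between genotypes beyond the test for any gene (0 of 14873, or 0%, at an adjusted p below 0.05, 941 at an unadjusted p below 0.05, 0 with DESeq2). The cKO effect minus the WT effect was −0.04 ± 0.13 for Kitl, −0.22 ± 0.18 for Cxcl12 and 0.25 ± 0.23 for Lepr, and the standard errors leave room for differences of moderate size in either direction. Genotype is also partly mixed with the mouse number series, since series 5400 holds cKO mice alone. Among cKO males, 2 leptin mice but no PBS mouse came from series 600.

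In LV, which was sampled in females only, neither Cxcl12 nor Kitl was called with leptin. Neither was called in the CV of females. With leptin Cxcl12 in LV of WT females was at 401, 443, 526, 551 and 553 TPM against 418, 470, 496, 500 and 501 with PBS, and the ranges overlapped. The mean effect over both genotypes was −0.14 ± 0.08 for Cxcl12, −0.01 ± 0.10 for Kitl, 0.06 ± 0.06 for Lepr and −0.28 ± 0.15 for Il7 (adjusted p from 0.29 to 0.98, edgeR). No member was called, where 0.955% of all genes were called and 3163 had an unadjusted p below 0.05. The CV effect minus the LV effect in WT females was 0.50 ± 0.18 for Cxcl12 (adjusted p = 0.21, edgeR) and 0.40 ± 0.21 for Kitl (adjusted p = 0.47), so a difference between the bones was not shown for either. In that interaction 0.941% of all genes and none of the 9 passed. The genotypes of LV did not separate any member either, where 0.0202% of all genes were called and 637 had an unadjusted p below 0.05.

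In iWAT, by contrast, 5 of the 9 genes were called with leptin, 2 higher and 3 lower, and none of the 5 overlapped between groups. Of all genes 15.1% were called in iWAT, 7.24% higher and 7.87% lower, and 18.7% did not overlap between groups, 4.32% lying wholly higher and 14.3% wholly lower. Lepr was at 2.59, 2.70, 2.99, 3.60 and 4.02 TPM with PBS and at 4.42, 5.34, 5.83, 6.92 and 7.66 with leptin, a rise of 1.01 ± 0.17 on the log2 scale (adjusted p = 0.00204, edgeR). Cxcl12 rose from 140 ± 14.9 to 246 ± 34.5 TPM (0.70 ± 0.11, adjusted p = 0.00167). Kitl (0.56 ± 0.19, adjusted p = 0.051), Il7 (0.47 ± 0.21) and Foxc1 (0.39 ± 0.26) were not called, and Csf1 stood at −0.01 ± 0.14. Kitl was called in 3 alternatives, DESeq2 (0.52, adjusted p = 0.034), a filter at a mean of 1 TPM (0.56, 0.0474) and the muscle covariate (0.54, 0.0265), and without leptin replicate 2 or 5.

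The vascular ligand Angpt1 and both EBF factors fell in iWAT. Angpt1 was at 7.00, 8.39, 9.59, 10.2 and 10.8 TPM with PBS and at 3.19, 3.80, 3.92, 4.08 and 6.50 with leptin (−1.06 ± 0.18, adjusted p = 0.00267). Ebf1, at 21.8 to 28.4 TPM with PBS and 13.8 to 17.8 with leptin, fell by 0.52 (SE 0.08, adjusted p = 0.00128), and Ebf3, at 11.1 to 13.8 TPM with PBS and 5.48 to 9.94 with leptin, fell by 0.63 (SE 0.15, adjusted p = 0.0130). In the same libraries 5 of 10 adipocyte markers were called lower and 1 higher, where 7.87% and 7.24% of all genes were. Of 6 erythroid markers 4 were called lower, from 2717 to 3642 TPM in sum with PBS to 289.5 to 1528 with leptin. Their part in these results was not tested.

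The response of Lepr differed between the tissues of the same WT females. The CV effect minus the iWAT effect was −1.61 ± 0.23 for Lepr (adjusted p = 2.51e-05, edgeR), 0.82 ± 0.22 for Angpt1 (0.00982) and 0.64 ± 0.17 for Ebf3 (0.00747). Il7 passed at −0.75 ± 0.27 (0.0479) but not with the mouse as a block (adjusted p = 0.076, edgeR) nor in 5 other alternatives (RLE size factors, no filter, limma at either pseudocount, the muscle covariate, adjusted p from 0.051 to 0.119), and it was lost when any of 7 of the 10 mice was left out. Csf1 (0.40 ± 0.16, adjusted p = 0.077) passed with that block (adjusted p = 0.035), under limma on log2(TPM + 1) and without PBS replicate 4. Lepr, Angpt1, Ebf3 and Il7 made 4 of 9, where 20.2% of all genes passed. Cxcl12 (−0.21 ± 0.18), Kitl (−0.15 ± 0.21) and Ebf1 (0.22 ± 0.15) did not pass, which does not show that they respond alike. The Lepr difference passed in each alternative and after each omission, from −1.85 to −1.41.

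**Figure D3:**
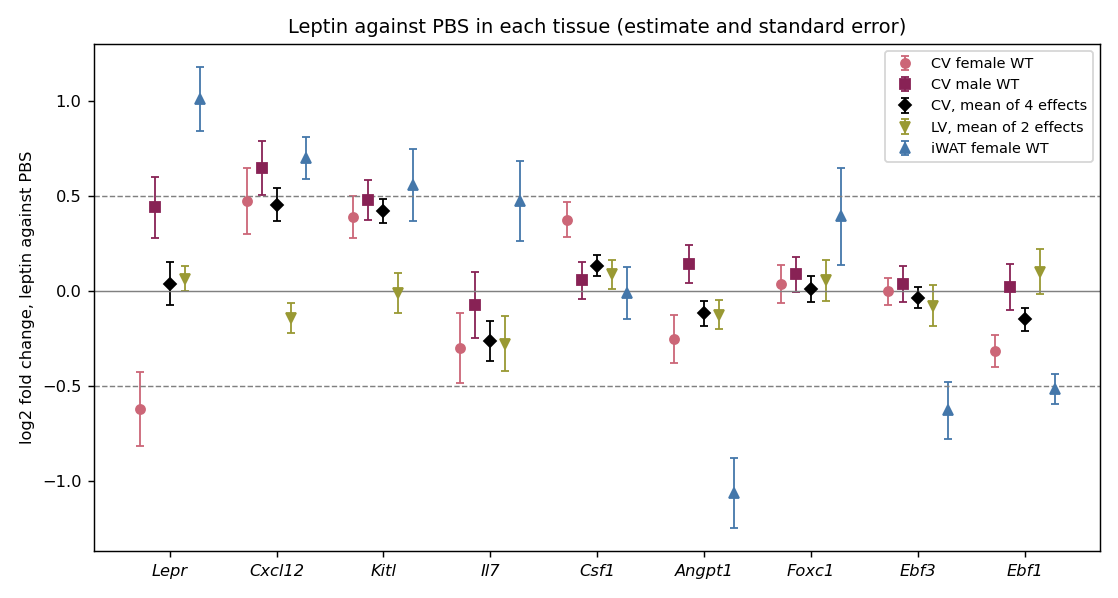
Log2 fold change of ICV leptin against ICV PBS for the 9 genes in CV, LV and iWAT, with bars for the standard error and dashed lines at the fold threshold of 0.5. Kitl and Cxcl12 lie above 0 in every CV contrast shown and in iWAT, and Lepr is at 1.01 in iWAT, −0.62 in CV of WT females and 0.44 in CV of WT males.

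Sex was examined within CV, since both sexes were sampled there. At the fold threshold no member was called between males and females, averaged over genotype and treatment, where 13.2% of all genes were called and 9230 had an unadjusted p below 0.05. By the adjusted p alone 7 of 9 passed, against 58.0% of all genes. Il7 (−0.49 ± 0.10, adjusted p = 0.000124), Ebf1 (−0.36 ± 0.06, 6.21e-06), Csf1 (−0.33 ± 0.06, 5.67e-06) and Foxc1 (−0.33 ± 0.07, 0.000103, all edgeR) were lower in males, 4 of 9 where 28.7% of all genes were lower by this rule. The CV of WT females with PBS held 31.6 to 34.8 TPM of Ebf1 and that of WT males 18.3 to 21.3, ranges that did not overlap. Il7 (2.10 to 3.41 TPM in females, 1.21 to 2.00 in males) and Foxc1 (23.3 to 28.9 and 15.9 to 21.1) also did not overlap in these groups, which made 3 of 9 where 27.2% of all genes did not overlap and 25.5% lay wholly lower in males.

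Lepr (0.30 ± 0.12, adjusted p = 0.0261), Cxcl12 (0.29 ± 0.09, 0.00563) and Ebf3 (0.17 ± 0.06, 0.00803, edgeR) were higher in males after TMM scaling, 3 of 9 where 29.3% of all genes were higher. Whether they passed depended on the scaling. On the TPM scale the median of all genes shifts by −0.20, and Lepr and Cxcl12 come to 0.03 and 0.06 under limma on log2(TPM + 1) while Ebf3 turns to −0.06. The 4 genes that were lower in males stayed lower on that scale. Since the scale itself moves genes toward lower in males, this adds no separate support for their direction. Kitl passed as lower in males on that scale alone (−0.25, adjusted p = 0.0032, limma). With the muscle marker level as a covariate, Lepr (0.30), Ebf3 (0.15), Cxcl12 (0.14) and Foxc1 (−0.20) no longer passed, with adjusted p from 0.0569 to 0.297 in edgeR, and the first 2 of these estimates were close to those without it. The sexes also differed in cell markers, with 8 of 8 osteoblast markers and 6 of 10 macrophage and osteoclast markers called lower and 7 of 10 muscle markers called higher in males. Of all genes 13.2% were called in either direction, and the part of these markers was not tested.

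**Figure D4:**
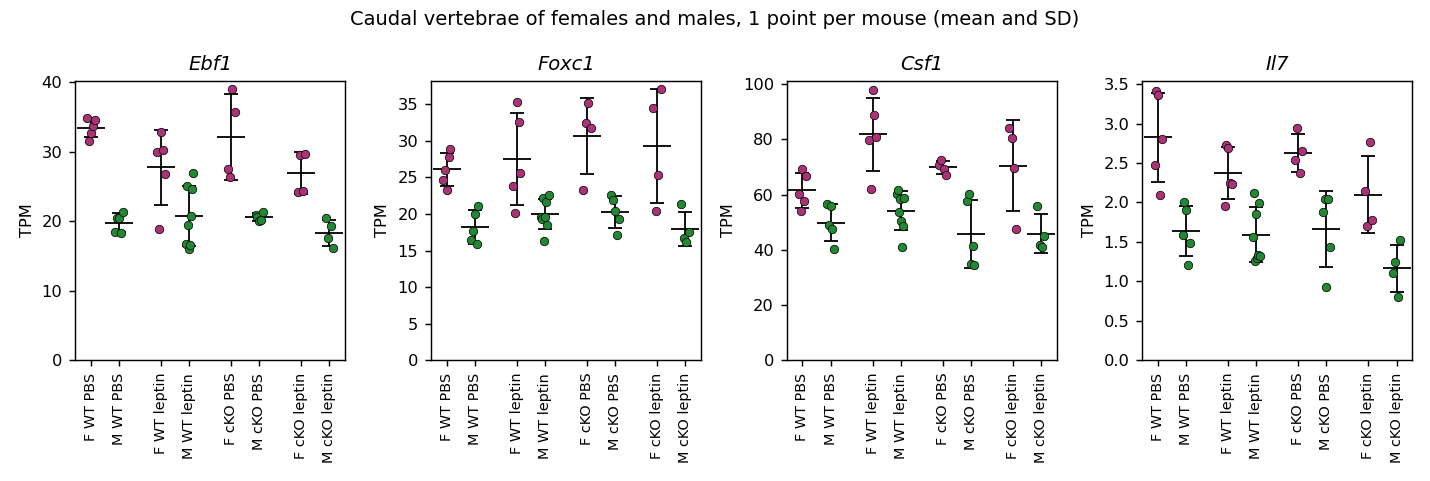
Ebf1, Foxc1, Csf1 and Il7 in TPM in caudal vertebrae of females and males by genotype and treatment, where points are mice and bars give mean and SD. Ebf1 of WT mice with PBS spans 31.6 to 34.8 TPM in females and 18.3 to 21.3 in males, and the 4 genes are lower in males in each pair of group means.

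Insulin was given to WT males to ask which leptin responses it would reverse. No member was called with insulin against without insulin, under leptin (0.363% of all genes called, 2475 at an unadjusted p below 0.05) or under PBS (0% called, 976 at an unadjusted p below 0.05, edgeR). Cxcl12 under leptin was at 750 to 2086 TPM with insulin (median 1337, n = 6) and at 1239 to 1804 without (n = 8), a difference of −0.11 ± 0.15. Within insulin-treated males, Cxcl12 spanned 855 to 1043 TPM with PBS and the difference with leptin was 0.55 ± 0.17 (adjusted p = 0.10), and Kitl differed by 0.36 ± 0.10 (adjusted p = 0.076), where 0.558% of all genes and no member were called and 2312 had an unadjusted p below 0.05. Without leptin and insulin replicate 4, the mouse at 750 TPM, Cxcl12 was called. No gene passed the edgeR test of whether the effect of leptin differed with insulin (0% called, 1385 at an unadjusted p below 0.05). DESeq2 called 21 genes and the replicate block 1, and a gene that did not pass may still differ. The differences were −0.10 ± 0.23 for Cxcl12, −0.12 ± 0.14 for Kitl and −0.40 ± 0.21 for Lepr (adjusted p = 0.56, edgeR). The mouse numbers of insulin-treated mice come from other series than those of the rest, so series and insulin cannot be told apart, and these comparisons share their leptin and PBS groups with those above. Among insulin-treated mice, all 5 with PBS are in series 300, while those with leptin are 3 in series 300 and 3 in series 400. Leptin is thus partly mixed with series there, and no series covariate was fitted. Within series 300 alone, Cxcl12 was higher with leptin by 0.74 and Kitl by 0.42 on log2(TPM + 1).

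The receptors of the 5 ligands were read alongside them as a list of 10 receptors and partners. As the mean of the 4 leptin effects in CV, 3 of 10 were called, all higher, against 5.39% of all genes called and 3.19% called higher. These were Cxcr4, the CXCL12 receptor (0.75 ± 0.19, adjusted p = 0.0033), Il7r, the IL-7 receptor chain (0.74 ± 0.15, 0.00029), and Il2rg, its common chain (0.55 ± 0.12, 0.0011, edgeR). Cxcr4 was uneven, and its treatment ranges overlapped in each pair of groups. In WT males it spanned 14.2 to 23.5 TPM with PBS and 12.7 to 96.2 with leptin (median 31.3). Its mean went from 25.7 to 29.8 TPM in WT females, 23.8 to 43.1 in cKO females and 22.9 to 35.6 in cKO males. The median of the list was 0.09, against 0.00 for all genes. Tek, the ANGPT1 receptor (−0.31 ± 0.05, adjusted p = 1.12e-05), Csf1r, the CSF1 receptor (0.27 ± 0.07, 0.0021), and Il34, its other ligand (−0.22 ± 0.08, 0.047, edgeR), passed by adjusted p alone. Kit (−0.14 ± 0.07), Ackr3 (−0.18 ± 0.10), Angpt2 (0.16 ± 0.11) and Tie1 (0.01 ± 0.06) did not pass. In iWAT Cxcr4 (0.86 ± 0.28) and Il7r (1.48 ± 0.44) were called higher with leptin, where B lineage markers summed to 73.3 to 323.6 TPM with PBS and 7.40 to 579.2 with leptin and their part was not tested. Between CV and LV, 6 of 10 were called higher in CV and 3 lower, where 65.4% of all genes were called and 35.3% higher, from Ackr3, the scavenging receptor of CXCL12 (4.21 ± 0.22), to Cxcr4 (−3.14 ± 0.22).

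Among 13 genes of leptin receptor signalling, Lep itself was called lower with ICV leptin, from 35.5 ± 11.8 to 0.53 ± 0.67 TPM in CV of WT females and from 281 ± 70.7 to 1.45 ± 2.54 in iWAT. Socs3, the feedback inhibitor induced by leptin and other cytokines, rose by 0.54 ± 0.12 in CV of WT females (adjusted p = 0.025), 0.80 ± 0.20 in WT males (0.049) and 0.55 ± 0.14 in iWAT (0.017). The mean of the 4 effects called Irs2 higher (0.54 ± 0.15) and Lep lower, with a list median of 0.13. By this mean 5.39% of all genes were called and 3.19% were called higher. Of 18 tested genes for other niche ligands, 3 were called higher and none lower as the mean of the 4 effects, namely Bmp4 (0.85 ± 0.08), Vegfc (0.69 ± 0.08) and Gas6 (0.59 ± 0.06), with a median of 0.14 over the list. These 3 were called higher in WT females and in WT males as well, where 5.04% and 1.75% of all genes were called in either direction.

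Of 19 other reticular and mesenchymal genes, Vcam1 (0.58 ± 0.10) was called higher and Igfbp5 (−0.83 ± 0.13) and Hp (−0.76 ± 0.15) lower as the mean of the 4 effects, with a median of 0.03. Of 11 related transcription factors, Cebpb (0.79 ± 0.19) was called higher and Cebpa (−0.52 ± 0.08) lower, with a median of −0.16. Both counts stand against 5.39% of all genes called and 3.19% called higher. Cebpb was widely spread in WT males with leptin, at 42.7 to 246.5 TPM (median 51.8, n = 8), against 30.2 to 44.7 with PBS (n = 5). In WT females its mean went from 64.6 to 81.4 TPM. Between CV and LV, 15 of the 19 stromal genes and 9 of the 11 factors were called higher in CV, against 35.3% of all genes, the latter led by Ebf2 (5.44 ± 0.21).

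The genes most like each member were sought by correlation across the 51 CV libraries after the mean of each of the 10 groups was removed, so that treatment, sex and genotype do not enter, though library composition does. Kitl varied most closely with Abca8a (r = 0.85), Ak3 (0.82) and Abca9 (0.82). Lepr varied with Mmrn1 (0.77), Cyp1b1 (0.76) and Epas1 (0.74), and Cxcl12 with Wdr86 (0.77), Stab2 (0.72), which marks sinusoidal endothelium, and Igfbp4 (0.71). The closest partners were Coro1c (0.88) for Csf1, Ctdsp1 (0.86) for Ebf1, Slc18b1 (0.83) for Angpt1, Igfbp4 (0.78) for Ebf3, Fbln5 (0.77) for Foxc1 and Tppp3 (0.64) for Il7. Among the 9 genes themselves, Kitl and Angpt1 (0.81), Angpt1 and Foxc1 (0.74) and Lepr and Foxc1 (0.67) varied together most, while Lepr and Csf1 did not (−0.02). These are descriptions over libraries that share their composition, and no test was made.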

How the data were processed

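Poly(A) RNA of 79 libraries was sequenced by the authors as DNBSEQ paired-end reads, filtered with SOAPnuke and aligned with HISAT and Bowtie2 to GRCm38.p6. The processing notes also name GRCm39, and the counting tool and strandedness are not given in the sources used here. The deposited values are estimated counts per gene, not normalized, and TPM that the authors calculated from them. A few estimated counts (51 values in 6 genes, none of the 9 described) were not whole and were rounded.

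Groups were taken from the sample labels. Counts were fitted with edgeR 4.0.16 (R 4.3.3; TMM, quasi-likelihood F test, Benjamini-Hochberg adjustment over the 14873 genes whose mean over all libraries reached 0.4 TPM). A gene was called at an adjusted p below 0.05 and, for fold changes, an absolute log2 value of at least 0.5, the thresholds of the study. Interactions were called on the adjusted p alone. Each comparison was fitted on the groups it concerns. The mean leptin effect, genotype, sex and their interactions in CV used the groups without insulin with 1 mean per group, and tissue comparisons used WT females. Levels are given as TPM. The members and gene lists were chosen with earlier results of these data known. Named genes were all members, the receptors and partners of the ligands, and, of the other lists, those called. The smallest chi-square per gene between libraries of a group was 11.2, more than sampling noise gives, so every library was counted on its own.

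Alternatives were DESeq2 1.42.0, RLE size factors, other filters, limma 3.58.1 on log2(TPM + 1) and on log2(TPM + 0.1), a replicate block, the mouse number series and the muscle marker level as covariates, and leaving out each library. The fits were tested on simulated data for the first comparison of each, except the single leptin fits of cKO females and cKO males. Genotype, sex and interaction comparisons were not simulated. Samples of CV, LV and iWAT from a mouse are paired by the mouse number in the labels. Correlations of their deviations from group means ranged from −0.02 to 0.41. P-values measure the spread between mice. Those of the main tissue comparisons take the libraries of a mouse as independent, and only the alternative with the mouse as a block uses the pairing. The deposited tables hold no column without a sample.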

Additional observations from a re-analysis of the deposited data

Results flagged for a closer look

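Of 144 combinations of gene and group with 4 to 10 mice, 6 held a mouse that stood apart from the rest of its group by Dixon's criterion, which chance meets in about 1 in 20 groups. Lepr reached 72.4 TPM in the CV of WT female PBS replicate 2, against 45.1 to 49.3 in the other 4 mice. Cxcl12 was at 166.4 TPM in iWAT of WT female PBS replicate 4, against 129.9 to 137.7. Csf1 was at 18.0 TPM in LV of WT female leptin replicate 4, against 12.6 to 13.5. Angpt1 was at 6.50 TPM in iWAT of WT female leptin replicate 2, against 3.19 to 4.08, and at 23.8 TPM in CV of WT male PBS and insulin replicate 4, against 19.2 to 19.9. Ebf3 was at 15.5 TPM (15.45 as listed) in CV of cKO male leptin replicate 1, against 10.8 to 11.5.

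The effect of leptin differed between CV and iWAT of WT females for 4 genes by the interaction test in edgeR. The CV effect minus the iWAT effect was −1.61 for Lepr, −0.75 for Il7, 0.82 for Angpt1 and 0.64 for Ebf3 on the log2 scale. Il7 did not pass with the mouse as a block (adjusted p = 0.0756, edgeR) or in 5 other alternatives. The causes were not tested.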

How the results depend on the processing

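Of 20 comparisons, 15 kept their count of called genes among the 9 within 1.5 times under every alternative and omission. For single genes, 1492 of the alternative values outside the omissions kept their side of an adjusted p of 0.05. These include changes of sign where neither fit passed, which were not counted apart. With the same sign 38 gained a pass and 25 lost it, and 2 changed sign where a fit passed. In WT females with leptin in CV the count of 0 became 2 by adjusted p alone and 1 with DESeq2 (Lepr), and 0 to 1 over the omissions (1 without leptin replicate 1, Cxcl12, or 3, Lepr). In WT males the count of 1 became 2 by adjusted p alone and with limma on log2(TPM + 1) or log2(TPM + 0.1), and 0 with the muscle covariate. Over the omissions it was 0 to 2, with 0 without PBS replicate 1, 2 or 4 and 2 without PBS replicate 3 or 5 or leptin replicate 6. The mean leptin effect in CV went from 0 to 2 by adjusted p alone and 1 (Cxcl12) with the muscle covariate. For sex in CV the count of 0 became 7 by adjusted p alone, 3 and 4 with limma at a pseudocount of 1 and 0.1, and 1 with the muscle covariate. It was 0 to 1 over the omissions, since Il7 passed −0.5 without any of 14 of the 40 mice. Ebf3 reversed from 0.17 to −0.065 and −0.070 under these limma fits (adjusted p of 0.244 and 0.243). Leptin with insulin went from 0 to 1 (Cxcl12) with DESeq2, and 0 to 1 over the omissions (1 without leptin and insulin replicate 4). The cause was not tested. TPM moved the median of all genes against TMM by 0.82 (log2) between CV and LV, 0.11 between CV and iWAT and −0.20 between sexes. Kitl in cKO females (0.49) passed by adjusted p in a fit of all 8 CV groups and the mean effect of Csf1 (0.12) with the mouse number series.

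Replicate numbers do not pair leptin with PBS mice, which are different animals (r of −0.40 to 0.51 between their deviations). With the replicate block the count in WT males became 0 (Cxcl12 at 0.73, adjusted p = 0.114, Kitl at 0.57, adjusted p = 0.0668, edgeR), and the mean effect of Ebf1 (−0.19, adjusted p = 0.0078) and Kitl under insulin (0.40) passed by adjusted p. Between tissues of a mouse the block changed the calls of Il7 and Csf1 given above and no other.

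Counts over all genes moved more. In CV of WT females 749 became 1306 by adjusted p alone. In WT males 260 became 434 by adjusted p alone, 464 with DESeq2, 416 with the mouse number series, 65 with the block and 56 with the muscle covariate. In cKO females 4 became 219 with DESeq2, 13 with the block and 418 in a fit of all 8 groups. In cKO males 28 became 214 with DESeq2, 14 with the block, 70 with the muscle covariate and 13 with the series. By adjusted p alone the mean effect went from 801 to 3942 (417 with limma at 1), sex from 1969 to 8626, genotype from 37 to 69 (63 with DESeq2 or the series), LV from 142 to 721 (42 and 63 with limma) and iWAT from 2248 to 3872. Genotype in LV went from 3 to 11 with DESeq2 and 5 with the block. The CV minus iWAT interaction went from 3001 to 1980 with the fold threshold, and the CV minus LV interaction, 140 in edgeR, spanned 32 to 436 over the alternatives that moved it. In the same way insulin under leptin, at 54, spanned 12 to 174 and leptin under insulin, at 83, spanned 131 to 229. DESeq2 called 4 genes for insulin under PBS and 21 for leptin by insulin, where edgeR called 0. Il7, at 28 to 115 counts per library, is the gene most limited by depth.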
